A study of Mus musculus with 6 samples.

Results

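The genes of MHC class I antigen presentation were examined in sorted scar cells of the mouse heart. The set held 10 of the 42256 genes in the count table: the heavy chain genes H2-K1, H2-D1, H2-Q4, H2-Q6, H2-Q7 and H2-T23, the light chain gene B2m, the peptide transporter genes Tap1 and Tap2, and the immunoproteasome gene Psmb8. It was chosen by the level of H2-Q6, which had been seen lower in the comparison described here, and the other 9 genes were added for their function. The values of H2-Q6 are therefore given as a description, with no p-value of its own. Counts of genes called over the set do include it, and no value of the set is independent support for the choice.

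A class I molecule is a heavy chain paired with beta-2 microglobulin that displays a short peptide at the cell surface. Proteasomes cut proteins into such peptides, the Tap1 and Tap2 proteins pump them into the endoplasmic reticulum, and interferons raise most genes of the route in fibroblasts and other cells. CD8 T cells read the classical molecules H2-K and H2-D, while nonclassical molecules such as Qa-1 and Qa-2 also engage receptors of natural killer cells.

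RNA came from PDGFRa+ cells, which the labels call fibroblast-like, sorted by flow cytometry from scar tissue digested with collagenase type II. Hearts were taken 7 days after myocardial infarction from mice of Mixed 129S2/C57Bl6 background that ate tamoxifen chow from 1 week before injury and throughout. The 4 Htr2b_cKO libraries were Htr2bfl/flPostnMCM/+, in which an inducible Cre at the Postn locus acts in activated fibroblasts, and the 2 control libraries were Htr2bfl/fl. Both groups thus carried the floxed Htr2b alleles and received tamoxifen, but the controls lacked Cre. Loss of Htr2b, a serotonin receptor gene, thus cannot be told apart from any effect of Cre or of the altered Postn allele. The series design counts 4 and 2 animals, as many as there are libraries, so each library was taken as 1 animal, and it states that all were injured at the same time. Ages are not stated.

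Levels are in CPM, the counts of a gene per 1000000 counts of its library, scaled between libraries by TMM. Library totals lay between 28533427 and 37392496 estimated counts, and a count of 0 allowed up to 3 counts, or 0.0781 to 0.109 CPM, for counting error only. Htr2b itself had 0, 3, 29 and 4 counts in Htr2b_cKO libraries 1 to 4, against 13 and 7 counts in control libraries 1 and 2. The library labelled Htr2b_cKO 3 was thus above both controls, and Htr2b_cKO 1, 2 and 4 were below both. Htr2b averaged 0.271 ± 0.406 CPM in Htr2b_cKO and 0.296 ± 0.060 CPM in control, so lower Htr2b RNA was not shown over the 4 libraries. Directions below were also computed without Htr2b_cKO 3. Htr2b_cKO 4 stood apart in sex-linked genes, with 139 CPM summed over Ddx3y, Uty, Eif2s3y and Kdm5d, against 0.0356 to 0.483 CPM in the other 5 libraries. Xist had 0.267 CPM in Htr2b_cKO 4, against 385 to 770 CPM in the other 5. By these genes Htr2b_cKO 4 was male and the other 5 libraries, both controls among them, were female, so sex was not balanced between the groups. Summed fibroblast markers were the highest of the marker lists in each library, at 78030 to 130700 CPM in the Htr2b_cKO libraries and 92670 and 116800 CPM in the control libraries. Macrophage markers were also present, at 351 to 4047 CPM in the Htr2b_cKO libraries, with the highest sum in Htr2b_cKO 3, and at 784 to 2475 CPM in the control libraries. The sorted fractions were therefore mixed, and fewer cells of a type and less RNA per cell cannot be told apart in them.

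The upstream sequences of the heavy chain genes are shown because the 5 genes below share response elements that are textbook features of class I promoters, and because H2-Q6 and H2-Q7 are nearly alike there. Each run is the 190 bases before the RefSeq start site in build GRCm38.p6, read 5′ to 3′ in the direction of the gene. Capitals mark matches to 5 motifs, on either strand. The kappa B letters were GGGGATTCC and the interferon response letters were GAANNGAAA. The CCAAT box was searched by those letters, the core of the cAMP response element as TGACG and the TATA box as TATAAA.
H2-K1 promoter (chr17:34000334-34000523, minus strand): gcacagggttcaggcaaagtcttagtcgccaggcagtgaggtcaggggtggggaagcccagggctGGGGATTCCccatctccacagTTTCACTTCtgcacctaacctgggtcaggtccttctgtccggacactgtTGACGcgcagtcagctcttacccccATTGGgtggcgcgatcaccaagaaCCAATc
H2-D1 promoter (chr17:35262904-35263093, plus strand): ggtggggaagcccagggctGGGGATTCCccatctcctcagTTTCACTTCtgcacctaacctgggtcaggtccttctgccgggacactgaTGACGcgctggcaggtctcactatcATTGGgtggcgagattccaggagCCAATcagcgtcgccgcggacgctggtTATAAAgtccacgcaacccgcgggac
H2-Q4 promoter (chr17:35379427-35379616, plus strand): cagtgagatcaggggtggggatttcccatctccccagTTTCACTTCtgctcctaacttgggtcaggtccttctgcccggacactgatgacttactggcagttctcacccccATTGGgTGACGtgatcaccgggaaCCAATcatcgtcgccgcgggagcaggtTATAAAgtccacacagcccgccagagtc
H2-Q6 promoter (chr17:35424660-35424849, plus strand): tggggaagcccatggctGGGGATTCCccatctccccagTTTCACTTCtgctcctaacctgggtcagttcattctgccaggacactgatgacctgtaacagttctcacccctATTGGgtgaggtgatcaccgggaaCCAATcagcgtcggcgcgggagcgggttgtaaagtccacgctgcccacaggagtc
H2-Q7 promoter (chr17:35438965-35439154, plus strand): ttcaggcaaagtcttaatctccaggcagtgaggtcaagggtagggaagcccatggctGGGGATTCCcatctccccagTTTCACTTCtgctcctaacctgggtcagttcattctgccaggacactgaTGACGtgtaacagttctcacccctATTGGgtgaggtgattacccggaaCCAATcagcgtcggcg
H2-K1, H2-D1, H2-Q6 and H2-Q7 held GGGGATTCC, which 0.259% of 27025 promoters of 300 bases (250 before to 50 after the start site) also held. All 5 genes held GAANNGAAA, found in 7.76% of promoters. The kappa B and interferon response letters began at -125 and -104 in H2-K1, at -171 and -150 in H2-D1, at -173 and -152 in H2-Q6, and at -133 and -113 in H2-Q7, counted from the start site. H2-Q4 held the interferon response letters at -153. Only exact letters were searched, so the near form of the kappa B letters that precedes them in the H2-Q4 run was not counted. CCAAT was found in 8 of the 9 set promoters available and in 37.6% of all promoters. TGACG, found in 20.5% of all promoters, was in 6 set promoters, with H2-Q7 but not H2-Q6 among them. TATAAA, found in 14.2% of all promoters, was in 5 set promoters and in neither H2-Q6 nor H2-Q7. It began at -26 in H2-D1, at -28 in H2-Q4, at -237 in Psmb8 and, on the opposite strand, at -152 in B2m. In H2-K1 it lay after the start site. No motif of the 5 overlapped another in the runs shown. Over the aligned upstream bases H2-Q6 and H2-Q7 were 97.6% identical, H2-K1 and H2-D1 were 88.7% identical, and H2-Q6 and H2-T23 were 61.2% identical. A match describes letters and not a bound site.

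The transcripts of these paralogs are also alike, which bears on how reads are divided between them. The coding sequences of H2-Q6 and H2-Q7 were 95.4% identical over 978 aligned bases, with 45 differences and 1 shared run of 265 bases. A stretch that does tell them apart is shown here, coding bases 66 to 155 in GRCm38, with its 13 differing bases in capitals.
H2-Q6 coding stretch (chr17:35425109-35425198, plus strand): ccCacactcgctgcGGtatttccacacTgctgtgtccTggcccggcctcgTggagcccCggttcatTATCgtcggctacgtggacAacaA
H2-Q7 coding stretch (chr17:35439453-35439542, plus strand): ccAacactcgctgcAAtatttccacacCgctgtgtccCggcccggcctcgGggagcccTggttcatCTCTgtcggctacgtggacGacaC
Of all stretches of 50 bases in the H2-Q6 transcripts, 32.0% also occurred in transcripts of another gene, against 26.4% for H2-Q7, 21.8% for H2-Q4, 13.6% for H2-T23, 12.8% for H2-D1, 9.63% for H2-K1 and 0% for B2m. At 100 bases the shares were 10.8% for H2-Q6 and 12.0% for H2-Q7. The read length is not given in the sources used here, so the level of a single H2-Q gene is uncertain, and sums of paralogs were tested beside the single genes. Of the set, H2-Q4, H2-T23, B2m, Tap1, Tap2 and Psmb8 overlap an annotated gene on the opposite strand. The counter's strand setting is not given, so reads of those partners cannot be told apart from theirs with certainty.

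All 10 genes had a lower mean level in Htr2b_cKO libraries than in control libraries, and none passed the test. The test was edgeR's quasi-likelihood F test with Benjamini-Hochberg adjustment over 15840 genes, which called 3 genes at adjusted p under 0.05 (0.0189%), 1 lower (0.00631%) and 2 higher (0.0126%). The count at an unadjusted p under 0.05 was 6 of 10 genes, all lower, where 2.99% of all genes were lower at that threshold. DESeq2 called 0.859% of all genes in either direction and 0.101% lower, and 1 of the 10 genes, which was H2-Q6 itself, so the call rests on the values behind the choice. With limma voom 0 of the 10 genes were called, and 0.0126% of all genes. For 7 of 10 genes every Htr2b_cKO library lay below both control libraries, as for 8.98% of all genes. The log2 fold change was below 0 for 10 of 10 genes and for 7922 of the 15840 genes tested, with a median of -0.43 for the set and -0.00 for all genes. Since the set was chosen with this contrast known, these counts describe it and test nothing.

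**Figure D1:**
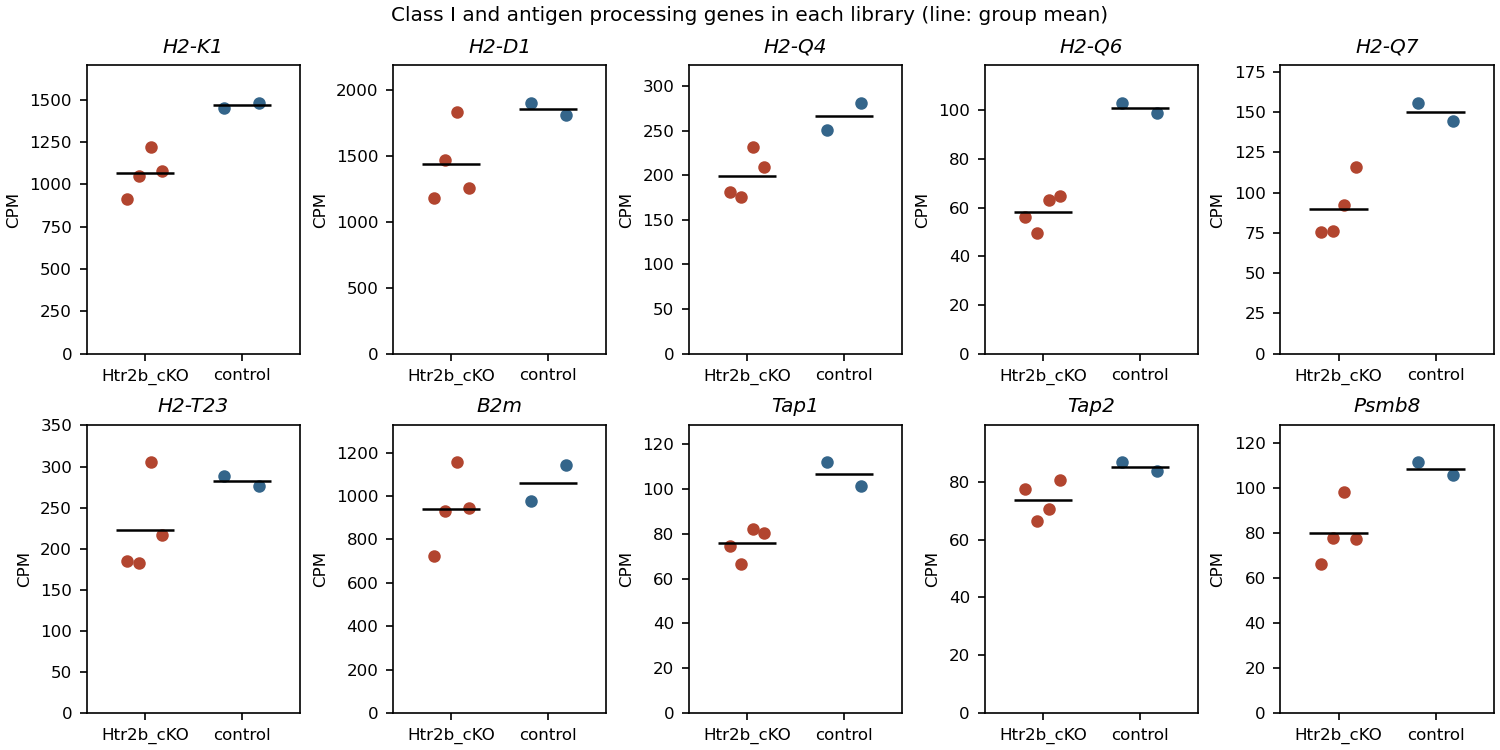
Levels of the 10 genes in CPM (vertical axes from 0) in the 4 Htr2b_cKO libraries (red, left) and the 2 control libraries (blue, right), 1 point per library with the group mean as a line. In 7 panels all red points lie below both blue points. In the panels of H2-D1, H2-T23 and B2m they overlap.

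The classical heavy chain genes were the most abundant heavy chains. H2-K1, on the minus strand of chromosome 17 (chr17:33996017-34000347, GRCm38), encodes the classical chain H2-K. H2-K1 had 911, 1050, 1224 and 1079 CPM in Htr2b_cKO libraries 1 to 4, against 1454 and 1482 CPM in control libraries 1 and 2. All 4 Htr2b_cKO libraries were below both controls. Means were 1066 ± 128 CPM in Htr2b_cKO (SD, n = 4) and 1468 ± 19.9 CPM in control (SD, n = 2), a log2 fold change of -0.46 (SE 0.17, edgeR adjusted p = 0.461). The members' median GC content was 55.1%, above the 50.2% of all tested genes, and correcting the libraries for GC and for the length of exons (offsets smoothed over genes) moved the log2 fold change of H2-K1 to -0.28.

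H2-D1 (chr17:35262730-35267499, plus strand) encodes the classical chain H2-D. It had 1176, 1469, 1831 and 1255 CPM in Htr2b_cKO libraries 1 to 4, against 1899 and 1805 CPM in control libraries 1 and 2. Htr2b_cKO 3 lay between the controls, and the other 3 Htr2b_cKO libraries lay below both. Means were 1433 ± 293 CPM in Htr2b_cKO and 1852 ± 66.7 CPM in control, a log2 fold change of -0.37 (SE 0.21, edgeR adjusted p = 0.62), or -0.21 when corrected for GC and length. Without Htr2b_cKO 3 the log2 fold change was -0.50.

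Summed, H2-K1 and H2-D1 had 2087, 2518, 3055 and 2334 CPM in Htr2b_cKO libraries 1 to 4, against 3353 and 3287 CPM in control libraries 1 and 2, so the groups did not overlap. The sum had a log2 fold change of -0.41 (SE 0.20, edgeR adjusted p = 0.573), which the GC and length correction moved to -0.24. H2-K1 over H2-D1 was 0.755 ± 0.082 in Htr2b_cKO and 0.793 ± 0.039 in control, with overlapping groups.

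Among the nonclassical H2-Q genes, which lie side by side on the plus strand of chromosome 17, the 2 with the lowest log2 fold changes of the set were found. H2-Q6 (chr17:35424850-35430055) and H2-Q7 (chr17:35439155-35443773) encode Qa-2 antigens. H2-Q6 had 56.2, 49.7, 63.3 and 64.6 CPM in Htr2b_cKO libraries 1 to 4, against 103 and 98.9 CPM in control libraries 1 and 2. Its highest Htr2b_cKO library was well below its lower control. The mean was 58.4 ± 6.90 CPM in Htr2b_cKO and 101 ± 2.99 CPM in control, so Htr2b_cKO libraries held 57.9% of the control level, with a log2 fold change of -0.79 (SE 0.14). The GC and length correction moved this fold change to -0.60. H2-Q7 had 75.2, 76.2, 92.2 and 116 CPM in Htr2b_cKO libraries 1 to 4, against 156 and 144 CPM in control libraries 1 and 2. Its groups did not overlap either, and Htr2b_cKO 4 was the nearest to the controls. Means were 89.8 ± 18.9 CPM in Htr2b_cKO and 150 ± 7.89 CPM in control. This gave a log2 fold change of -0.74 (SE 0.19, edgeR adjusted p = 0.346), or -0.59 once corrected for GC and length.

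H2-Q4 (chr17:35379617-35385290), which encodes the nonclassical chain Qb-1, had 181, 176, 231 and 210 CPM in Htr2b_cKO libraries 1 to 4, against 251 and 281 CPM in control libraries 1 and 2. The groups did not overlap. The log2 fold change of H2-Q4, -0.42 (SE 0.16, edgeR adjusted p = 0.468), was smaller in size than those of H2-Q6 and H2-Q7, and -0.24 once corrected for GC and length.

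The Qa-2 pair was read as 1 unit, so that the division of reads between these genes did not enter. Reads shared with genes outside the pair can still be divided, since H2-Q7 had 631 stretches of 50 bases in common with H2-Q10 and 393 with H2-Q5, against 284 with H2-Q6, and H2-Q6 had 251 in common with H2-Q4. The sum of H2-Q6 and H2-Q7 was 131, 126, 155.5 and 180 CPM in Htr2b_cKO libraries 1 to 4, against 259 and 243 CPM in control libraries 1 and 2. Every Htr2b_cKO library lay below both controls. This sum averaged 148 ± 24.95 CPM in Htr2b_cKO and 251 ± 10.9 CPM in control, a log2 fold change of -0.76 (SE 0.17). Its edgeR adjusted p was 0.322 and its DESeq2 adjusted p 0.0194, and because the sum holds H2-Q6 neither is independent of the choice. Corrected for GC and length, the pair had a log2 fold change of -0.59 (edgeR adjusted p = 0.914). With H2-Q4 added, the sum averaged 348 ± 47.2 CPM in Htr2b_cKO and 517 ± 10.4 CPM in control, again with no overlap (log2 fold change -0.57, SE 0.16, edgeR adjusted p = 0.381), with the same limit on the choice. Its log2 fold change was -0.40 once corrected for GC and length. H2-Q8 and H2-Q9, other Qa-2 genes, were not found by symbol among the genes counted, so neither is in the sums. Whether reads of these genes were counted on others is not known.

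The division within the pair hardly differed. H2-Q6 made up 39.7 ± 2.90% of the Qa-2 pair in Htr2b_cKO and 40.3 ± 0.55% in control, with overlapping groups. Of the 3 H2-Q genes together, H2-Q6 made up 16.9 ± 0.75% in Htr2b_cKO and 19.5 ± 0.97% in control, while H2-Q4 made up 57.4 ± 2.58% in Htr2b_cKO and 51.4 ± 3.09% in control. The groups did not overlap for either share, and these shares follow from the choice of H2-Q6 in part.

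**Figure D2:**
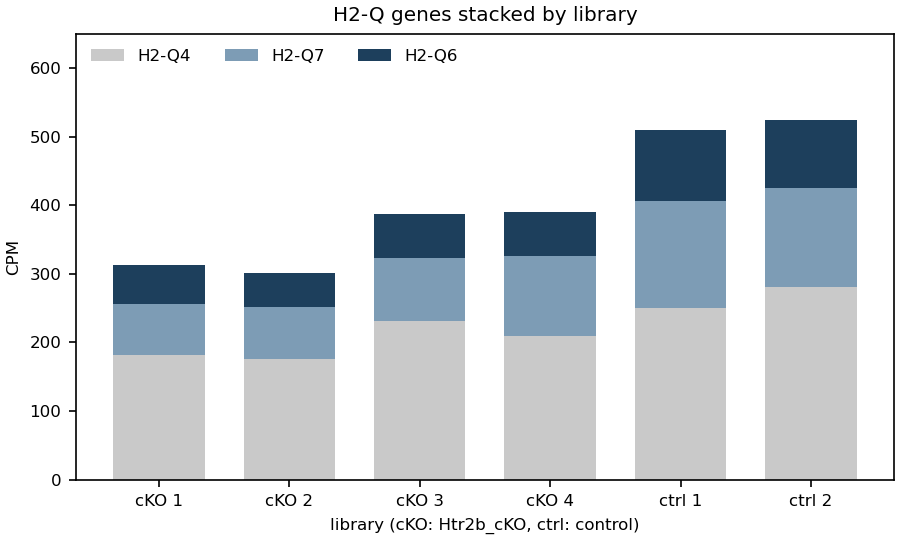
CPM of H2-Q4 (grey), H2-Q7 (light blue) and H2-Q6 (dark blue) stacked in each library, with the 4 Htr2b_cKO libraries (cKO) left of the 2 control libraries (ctrl) and the vertical axis from 0. The stacks reach 302 to 390 CPM in Htr2b_cKO and 510 and 524 CPM in control.

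H2-T23 (chr17:36029773-36032855, minus strand) encodes Qa-1, a ligand of CD94/NKG2 receptors. It had 185, 183, 305 and 217 CPM in Htr2b_cKO libraries 1 to 4, against 288 and 276 CPM in control libraries 1 and 2. Htr2b_cKO 3 was above both controls and the other 3 were below them. H2-T23 thus gave a log2 fold change of -0.34 (SE 0.22, edgeR adjusted p = 0.65), -0.16 once corrected for GC and length and -0.52 without Htr2b_cKO 3.

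All 6 heavy chain genes summed had 2585, 3003, 3747 and 2941 CPM in Htr2b_cKO libraries 1 to 4, against 4151 and 4087 CPM in control libraries 1 and 2. No Htr2b_cKO library reached the controls, and Htr2b_cKO 3 was the nearest. The fit gave a log2 fold change of -0.42 (SE 0.20, edgeR adjusted p = 0.564), -0.25 once corrected for GC and length. The smaller genes weigh little in it, since H2-K1 and H2-D1 made up 34.9 ± 1.66% and 46.5 ± 3.0% of the sum in Htr2b_cKO, and 35.6 ± 0.87% and 45.0 ± 1.13% in control.

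B2m, the light chain gene, is the only gene of the set outside chromosome 17 (chr2:122147686-122153083, plus strand). It had 724, 930, 1156 and 942 CPM in Htr2b_cKO libraries 1 to 4, against 978 and 1144 CPM in control libraries 1 and 2. The groups overlapped, with Htr2b_cKO 3 above both controls. Means were 938 ± 177 CPM in Htr2b_cKO and 1061 ± 117 CPM in control, a log2 fold change of -0.18 (SE 0.21, edgeR adjusted p = 0.814). It was -0.05 without control 2, -0.29 without control 1 and -0.27 once corrected for GC and length. The 6 heavy chains over B2m came to 3.57, 3.23, 3.24 and 3.12 in Htr2b_cKO libraries 1 to 4, against 4.25 and 3.57 in control libraries 1 and 2. Htr2b_cKO 1 and control 2 were nearly level in this ratio.

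The peptide transporter genes differed from each other. Tap1 (chr17:34187553-34197225, plus strand) had 74.6, 66.7, 82.1 and 80.5 CPM in Htr2b_cKO libraries 1 to 4, against 112 and 101 CPM in control libraries 1 and 2. The groups did not overlap, with a log2 fold change of -0.49 (SE 0.13, edgeR adjusted p = 0.364), or -0.40 once corrected for GC and length. Tap2 (chr17:34203527-34216321, plus strand) had 77.5, 66.4, 70.7 and 80.5 CPM in Htr2b_cKO libraries 1 to 4, against 86.9 and 83.8 CPM in control libraries 1 and 2. Its groups stood close together without overlap, and Tap2 gave a log2 fold change of -0.21 (SE 0.13, edgeR adjusted p = 0.643), or -0.03 once corrected for GC and length. Tap1 over Tap2 was 1.03 ± 0.089 in Htr2b_cKO and 1.25 ± 0.057 in control, with no overlap. Psmb8 (chr17:34197721-34201454, plus strand), which encodes a catalytic subunit of the immunoproteasome, had 66.0, 77.5, 98.1 and 77.2 CPM in Htr2b_cKO libraries 1 to 4, against 111 and 105.5 CPM in control libraries 1 and 2. The groups did not overlap, with a log2 fold change of -0.44 (SE 0.17, edgeR adjusted p = 0.461), moved to -0.26 by the GC and length correction.

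**Figure D3:**
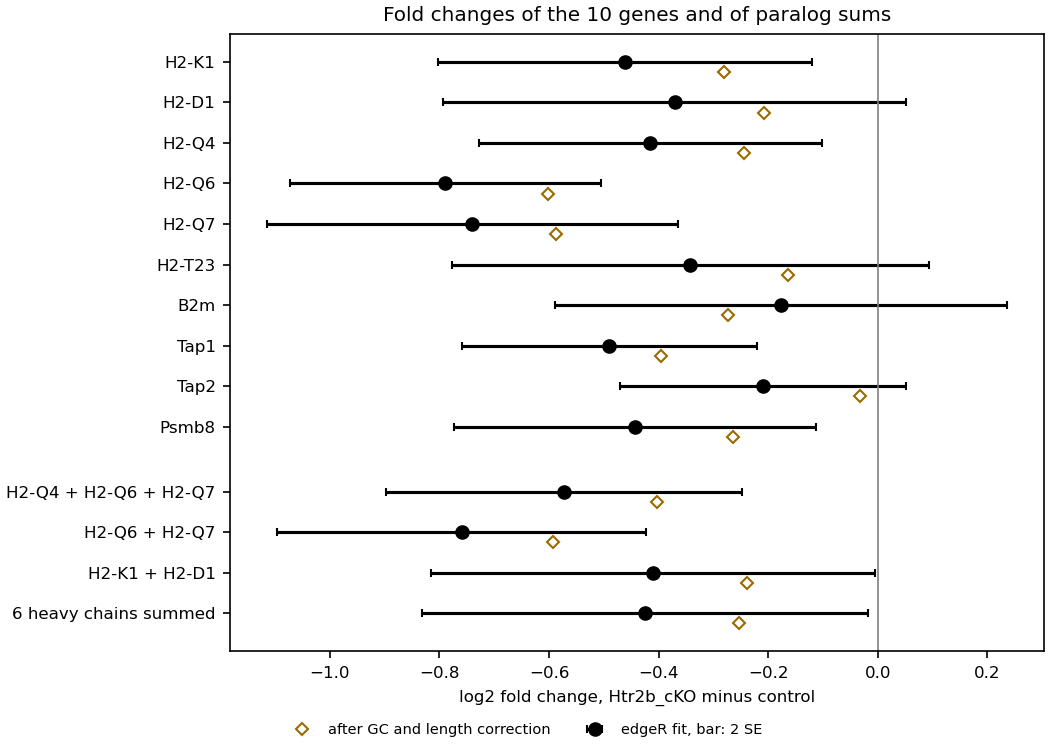
Log2 fold change, Htr2b_cKO minus control, of the 10 genes and of 4 sums (black points, bars of 2 SE from edgeR), with the value once corrected for GC and length as open diamonds. All points and diamonds lie left of 0. H2-Q6, H2-Q7 and their sum are farthest left, and Tap2 lies at -0.03 after correction.

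On the level scale, per kb of annotated exon, the genes kept a wide order. B2m stood first with 1091 ± 205 CPM per kb in Htr2b_cKO and 1233 ± 136 CPM per kb in control. H2-D1 followed with 555.5 ± 114 CPM per kb in Htr2b_cKO and 718 ± 25.9 CPM per kb in control, and H2-K1 with 363 ± 43.7 CPM per kb in Htr2b_cKO and 499.5 ± 6.78 CPM per kb in control. These 3 did not overlap in either group. H2-T23 and H2-Q4 did not differ beyond their spread, with 77.0 ± 19.9 and 76.8 ± 9.97 CPM per kb in Htr2b_cKO and 97.6 ± 3.05 and 103 ± 8.21 CPM per kb in control. H2-Q6, Psmb8, H2-Q7, Tap2 and Tap1 had mean levels of 13.9 to 28.0 CPM per kb in Htr2b_cKO and 19.5 to 48.4 CPM per kb in control. In Htr2b_cKO the ranges of Psmb8, H2-Q7 and Tap2 overlapped, and in control H2-Q6 stood above these 3.

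The profiles over libraries were alike for some of the 10 genes and not for others. Averaged over the genes, the log2 level relative to the mean of the 6 libraries was -0.32, -0.27, 0.06 and -0.08 in Htr2b_cKO libraries 1 to 4, against 0.31 and 0.30 in control libraries 1 and 2. Over all 6 libraries, the step between groups included, H2-K1 followed this mean most closely, with a root mean square difference of 0.052, and H2-Q7 least closely, with 0.211. Within Htr2b_cKO, Tap2 departed from the mean, with 0.00, -0.22, -0.13 and 0.06 in libraries 1 to 4. Htr2b_cKO 3, the highest Htr2b_cKO library in 7 of the genes, was also the one with the most macrophage marker RNA, 4047 CPM over 10 markers. H2-Q6, H2-Q7 and Tap2 were instead highest in Htr2b_cKO 4, where the macrophage sum was 351 CPM. For H2-Q6 the 2 libraries were nearly level, with 63.3 CPM in Htr2b_cKO 3 and 64.6 CPM in Htr2b_cKO 4. Tap1 was nearly level too, with 82.1 CPM in Htr2b_cKO 3 and 80.5 CPM in Htr2b_cKO 4. Control 2 had 784 CPM of macrophage markers, 52.2 CPM of endothelial markers and 6.98 CPM of lymphocyte markers, within the Htr2b_cKO ranges of 351 to 4047, 50.4 to 95.9 and 2.64 to 14.4 CPM. Its mural and cardiomyocyte marker sums, 50.3 and 9.91 CPM, lay below the Htr2b_cKO ranges of 68.7 to 95.9 and 11.5 to 29.2 CPM. That control 2 lay above all Htr2b_cKO libraries in the 7 genes without overlap holds by definition. Control 1 had 275.5 CPM of endothelial, 21.4 CPM of lymphocyte, 104 CPM of neutrophil, 117 CPM of mural and 39.6 CPM of cardiomyocyte markers. Each of these sums was above those of all other libraries, while its macrophage sum, 2475 CPM, lay below that of Htr2b_cKO 3. The dendritic cell list was the one marker list whose sums did not overlap, with 13.2 to 19.9 CPM in Htr2b_cKO and 21.3 and 21.8 CPM in control. Of its 8 genes, Xcr1 was at 0 in all 4 Htr2b_cKO libraries and in control 2, and Zbtb46 gave 10.3 to 12.8 CPM of the sum in Htr2b_cKO and 14.1 and 16.5 CPM in control. Of the 6 that could be tested, 3 had a log2 fold change below 0 and 3 above. Ccr7 averaged 0.528 CPM in Htr2b_cKO and 2.42 CPM in control without overlap, while Itgax, Flt3 and Siglech lay above 0, with log2 fold changes of 0.16, 0.67 and 1.08. The part of these cells in the class I levels was not tested. The median log2 fold change of the set was -0.52 without Htr2b_cKO 3 and -0.59 without both Htr2b_cKO 3 and Htr2b_cKO 4.

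**Figure D4:**
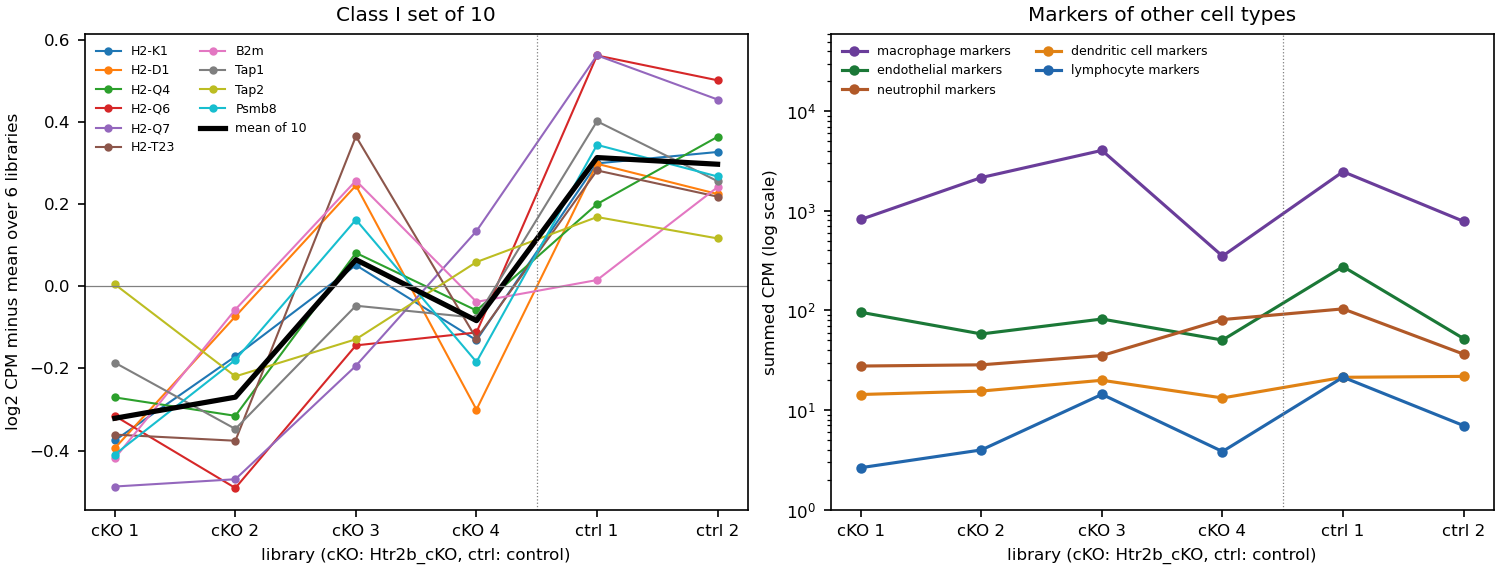
Left, log2 CPM of each of the 10 genes minus its mean over the 6 libraries (coloured lines; black, their mean). Right, summed CPM of markers of other cell types on a log scale. Htr2b_cKO libraries (cKO) are left of the control libraries (ctrl) in both panels. The black line lies between -0.32 and 0.06 in Htr2b_cKO and at 0.31 and 0.30 in control, while macrophage sums run from 351 to 4047 CPM within Htr2b_cKO alone.

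The rest of the class I route was read from 7 further lists, and no gene of any list passed edgeR's test. Unadjusted counts are set beside the background of 2.99% lower and 6.60% higher, and counts without overlap beside 8.98% lower and 10.6% higher. Of 27 other class I heavy chain genes, 22 were found by symbol among the genes counted and 15 could be tested. Of these 15, 12 had a log2 fold change below 0, 1 of them at an unadjusted p under 0.05 and 3 of them without overlap. Of the 3 above 0, 1 was higher at an unadjusted p under 0.05 and without overlap. The list median was -0.36, and it was -0.08 without control 1, -0.17 without Htr2b_cKO 1 and -0.14 once corrected for GC and length. H2-T22, a nonclassical gene that encodes a ligand of some gamma-delta T cells, had 125.5, 117, 153 and 131.5 CPM in Htr2b_cKO libraries 1 to 4, against 175 and 173 CPM in control libraries 1 and 2 (log2 fold change -0.40, SE 0.14, edgeR adjusted p = 0.446). Mr1, which presents vitamin B metabolites to MAIT cells, lay the other way. It had 22.3, 23.1, 26.7 and 24.1 CPM in Htr2b_cKO libraries 1 to 4, against 15.7 and 16.4 CPM in control libraries 1 and 2 (log2 fold change 0.59, SE 0.15, edgeR adjusted p = 0.346). Fcgrt, the heavy chain of the neonatal Fc receptor, averaged 191 ± 33.2 CPM in Htr2b_cKO and 216 ± 20.1 CPM in control, with overlap.

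Loading and trimming genes lay in both directions. Of 13 genes 9 had a log2 fold change above 0, with a list median of 0.08, and 2 were higher at an unadjusted p under 0.05. Without overlap 2 were lower and 1 was higher. Tapbp, the tapasin gene that bridges the transporter and the heavy chain, averaged 308.5 CPM in Htr2b_cKO and 374.5 CPM in control without overlap (log2 fold change -0.28, edgeR adjusted p = 0.573). Tapbpl, a tapasin-like gene of peptide editing, averaged 17.2 CPM in Htr2b_cKO and 21.7 CPM in control, also without overlap (log2 fold change -0.33, edgeR adjusted p = 0.59). The aminopeptidase gene Lnpep averaged 67.7 ± 13.7 CPM in Htr2b_cKO and 48.2 ± 1.6 CPM in control (log2 fold change 0.49, edgeR adjusted p = 0.475), and the peptidase gene Tpp2 averaged 50.2 ± 5.51 CPM in Htr2b_cKO and 38.8 ± 5.55 CPM in control (log2 fold change 0.37, edgeR adjusted p = 0.517). The abundant chaperone genes overlapped between groups, with Calr at 1492 ± 222 CPM in Htr2b_cKO and 1507 ± 167 CPM in control, and Hspa5 at 1698 ± 228 CPM in Htr2b_cKO and 1447 ± 359 CPM in control. Tapbp, Tapbpl, Flt3 and Siglech were named after their values were seen.

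In the proteasome list 10 of 12 genes had a log2 fold change below 0, with a median of -0.23 that was -0.10 without control 1 and -0.13 with the GC and length offsets. At an unadjusted p under 0.05, 3 were lower and 1 was higher, and 5 were lower without overlap. Psme1 and Psme2, the subunits of the interferon-inducible activator PA28, were the genes with the smallest p. Psme2 had 69.8, 76.3, 92.2 and 78.1 CPM in Htr2b_cKO libraries 1 to 4, against 108 and 105 CPM in control libraries 1 and 2 (log2 fold change -0.43, SE 0.14, edgeR adjusted p = 0.419). Psme1 averaged 77.3 ± 9.43 CPM in Htr2b_cKO and 102 ± 0.73 CPM in control (log2 fold change -0.40, edgeR adjusted p = 0.439). The groups did not overlap for either gene. The sum of Psme1 and Psme2 over Psme4, the gene of another activator, was 1.91, 2.01, 2.97 and 1.99 in Htr2b_cKO libraries 1 to 4, against 4.91 and 3.30 in control libraries 1 and 2. Psme4 lay the other way and so adds to this difference. It averaged 71.57 ± 7.22 CPM in Htr2b_cKO and 52.85 ± 13.9 CPM in control, with overlap (log2 fold change 0.44, edgeR adjusted p = 0.506). Immunoproteasome over constitutive catalytic subunits came to 0.588 ± 0.111 in Htr2b_cKO and 0.731 ± 0.109 in control, with overlapping groups. The constitutive genes Psma7 and Psmb6 averaged 124 ± 12.5 and 87.3 ± 12.0 CPM in Htr2b_cKO, against 152 ± 12.6 and 97.7 ± 21.3 CPM in control.

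Transcription regulators of class I genes lay near the centre of all genes, with 11 of 16 below 0 and a median of -0.11. At an unadjusted p under 0.05, 1 gene was lower. Without overlap 4 were lower and 1 was higher. Irf2, an interferon regulatory factor gene, had 20.7, 21.5, 25.8 and 24.2 CPM in Htr2b_cKO libraries 1 to 4, against 31.0 and 28.9 CPM in control libraries 1 and 2 (log2 fold change -0.38, SE 0.15, edgeR adjusted p = 0.478). Rela, an NF-kappa B subunit gene, averaged 76.7 ± 4.25 CPM in Htr2b_cKO and 92.9 ± 10.97 CPM in control without overlap (log2 fold change -0.27, edgeR adjusted p = 0.56). Irf1, another interferon regulatory factor gene, averaged 192 ± 32.2 CPM in Htr2b_cKO and 163 ± 20.0 CPM in control, with overlap. Of 9 tested interferon ligand and receptor genes 4 lay below 0 and none was without overlap, with a median of 0.04. Jak1, a receptor kinase gene, averaged 256 ± 14.3 CPM in Htr2b_cKO and 249 ± 34.9 CPM in control, and Ifnar1, a type I interferon receptor gene, averaged 104 ± 4.73 CPM in Htr2b_cKO and 117 ± 12.8 CPM in control. Ptpn2, a phosphatase gene that limits this signalling, and Ifngr2, a receptor gene for interferon gamma, had the smallest p of the list, with log2 fold changes of 0.38 and -0.31 (edgeR adjusted p = 0.594 and 0.618). Of 9 genes for NK and T cell receptors of class I, 8 were found by symbol. The 1 that could be tested, Pirb, had 12.5 to 60.3 CPM in Htr2b_cKO and 53.6 and 22.7 CPM in control.

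**Figure D5:**
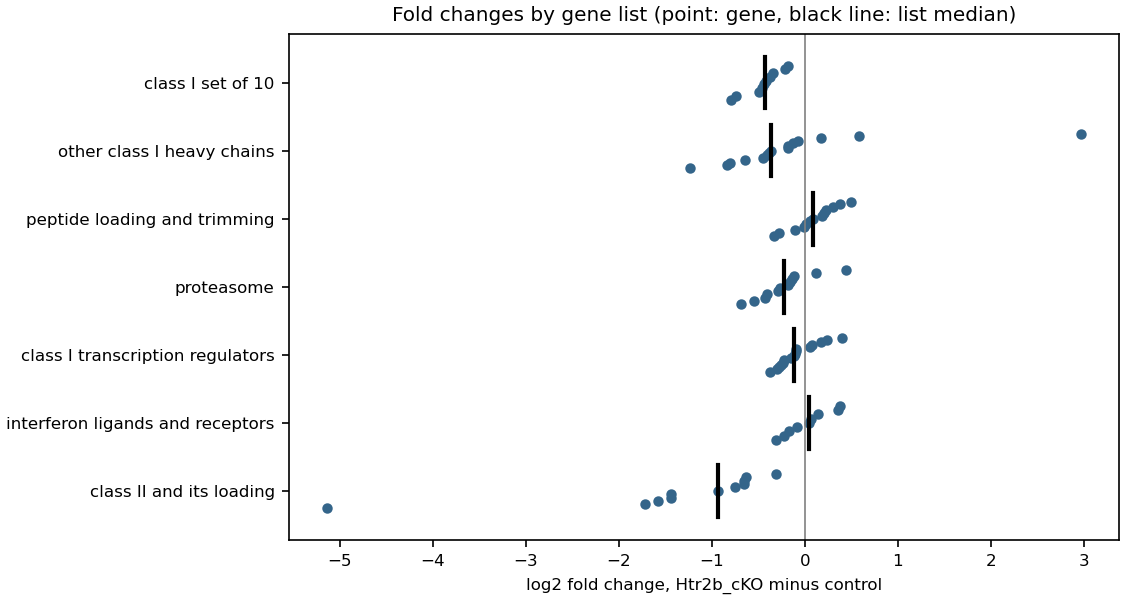
Log2 fold change, Htr2b_cKO minus control, of every tested gene (points) in the set of 10 and in 6 further lists, with list medians as black lines. Medians are -0.43 for the set, -0.36 for other class I heavy chains, 0.08 for loading and trimming, -0.23 for the proteasome, -0.11 for regulators, 0.04 for interferon ligands and receptors and -0.93 for class II. The far left point is H2-Oa, at 0 in 3 Htr2b_cKO libraries.

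Class II genes, which professional antigen-presenting cells express, lay below 0 in 11 of 11 cases, with a median of -0.93 that was -0.22 without control 1, and 3 were without overlap. Ciita, the class II transactivator gene, had 0.677, 0.663, 1.06 and 0.653 CPM in Htr2b_cKO libraries 1 to 4, against 3.10 and 1.84 CPM in control libraries 1 and 2 (log2 fold change -1.72, SE 0.42, edgeR adjusted p = 0.327). Cd74, the invariant chain gene, had 63.6, 47.7, 110 and 62.4 CPM in Htr2b_cKO libraries 1 to 4, against 164 and 74.7 CPM in control libraries 1 and 2. Cd74 overlapped through Htr2b_cKO 3, the library with the most macrophage marker RNA. H2-Ab1 averaged 35.3 ± 16.7 CPM in Htr2b_cKO and 55.5 ± 29.3 CPM in control, with overlap, and H2-Oa was at 0 in 3 Htr2b_cKO libraries and at 0.0302 CPM in the fourth, against 0.442 and 0.362 CPM in control. The part of antigen-presenting cells in these values was not tested.

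Tested genes within 200 kb of H2-Q6 were also read, which leaves most of chromosome 17 out. H2-K1, Tap1, Tap2, Psmb8 and H2-T22, also lower without overlap, lie on it outside this window. Of 15 tested genes within 200 kb, the groups were apart and lower for H2-Q4, H2-Q5 and H2-Q7, as for 8.98% of all genes. H2-Q4 and H2-Q7 belong to the set, and H2-D1, also of the set, overlapped. H2-Q5, annotated as a polymorphic pseudogene, had 5.56 to 5.97 CPM in Htr2b_cKO and 8.12 and 6.65 CPM in control (log2 fold change -0.36, edgeR adjusted p = 0.627). H2-Q10 overlapped, with 2.14, 2.98, 1.93 and 6.12 CPM in Htr2b_cKO libraries 1 to 4, against 4.92 and 6.80 CPM in control libraries 1 and 2. H2-Q1 was under 1.1 CPM in all libraries. Neighbours outside the class I family overlapped between groups, with Cdsn as the exception. Ddx39b, an RNA helicase gene on the H2-D1 side, had a log2 fold change of -0.11 (SE 0.13), Nfkbil1 -0.20 (SE 0.23), and on the other side Tcf19 0.00 (SE 0.19) and Cchcr1 0.12 (SE 0.14). Cdsn, at 0.452 to 0.845 CPM in Htr2b_cKO and 0.26 and 0.434 CPM in control, was apart and higher, as for 10.6% of all genes. The low-count genes Atp6v1g2, Gm8741, Gm11131 and Gm8750 overlapped.

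Likeness of profile was measured as the root mean square difference of centred log2 CPM over the 6 libraries, among 9915 genes. Nearest to H2-Q6 were Gm10132, a processed pseudogene (0.118), Rps3a1 (0.133), Bcl3 (0.153), Ilvbl (0.155) and Nr1h3 (0.163). Rps3a1, a ribosomal protein gene, had 493 to 651 CPM in Htr2b_cKO and 909 and 983 CPM in control. Nearest to the mean of the set were Ly6e (0.035), Psme2 (0.046), Zfp467 (0.048), Irf2 (0.049) and Daxx (0.051). Ly6e, an interferon-inducible gene of a surface protein, had 507, 529, 638 and 565.5 CPM in Htr2b_cKO libraries 1 to 4, against 785 and 744 CPM in control libraries 1 and 2. These genes were found by their values in this contrast, and no test was made of them.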

How the data were processed

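Gene-level estimated counts, deposited by the authors as whole numbers that are not normalized, were used as they stand. The deposited normalized signal, in which the authors divided each count by a factor of its gene and library, was used only as offsets in 1 alternative. The submitters' processing notes name DRAGEN, DESeq2 and build mm10, without versions or roles. Which aligner settings, read length, strand setting and annotation applied is not given in the sources used here. All 42256 identifiers were matched to GENCODE symbols, and promoters of 9 of the 10 genes to RefSeq (GRCm38.p6).

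The 6 libraries were grouped by genotype, with replicates numbered in accession order. edgeR 4.0.16 in R 4.3.3 was used (TMM, filterByExpr, robust quasi-likelihood F test, two-sided, Benjamini-Hochberg), leaving 15840 genes. For each sum, its row replaced its members before the fit. SE is the size of the log2 fold change (Htr2b_cKO minus control) over the square root of F. CPM is given as mean ± SD. The scripts were tested on simulated data. With 15 splits of 2 and 4 libraries, an exact permutation test cannot go below p = 0.0667, so none was run. All pairs of libraries differed beyond counting noise.

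The genes, sums and lists were chosen with earlier results of these data known. Text names the 10 genes and 4 sums, from each further list the 2 genes with the smallest p and the 2 with the highest mean CPM, the tested genes within 200 kb of H2-Q6, and the 5 nearest profiles to H2-Q6 and to the mean. Of the genes this rule takes, 1 is not reported here. Alternatives were RLE scaling, no filter, DESeq2 1.42.0, limma 3.58.1 voom, the legacy dispersion, leaving out libraries, the authors' factors, and a GC and length correction.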

Additional observations from a re-analysis of the deposited data

Results flagged for a closer look

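In the 4 Htr2b_cKO libraries, 86 genes and sums were examined for a library far from the other 3, and 10 were found, none of them among the 10 class I genes or their sums; chance alone sets apart about 1 in 20 such groups. Ptpn2, a phosphatase gene that limits interferon signalling, had 35.1 CPM in Htr2b_cKO 4, against 24.8 to 26.2 CPM in the other 3. S100a8 had 23.4 CPM in Htr2b_cKO 4, against 4.88 to 7.37 CPM, and S100a9, its partner in neutrophils, had 42.2 CPM there, against 11.7 to 12.3 CPM. In Htr2b_cKO 3, Ciita had 1.06 CPM, against 0.653 to 0.677 CPM, and Zbtb46, of the dendritic cell list, had 12.8 CPM, against 10.3 to 10.7 CPM. H2-Oa had 0.0302 CPM in Htr2b_cKO 3 and was at 0 in the other 3. This lies under the 0.0906 CPM that 3 counts make in Htr2b_cKO 3, so counting error alone allows it. Tnnt2, a cardiomyocyte gene, had 10.4 CPM in Htr2b_cKO 3, against 3.49 to 4.13 CPM. Ttn, another cardiomyocyte gene, had 3.78 CPM in Htr2b_cKO 1, against 0.783 to 1.24 CPM. In Htr2b_cKO 2, H2-Q1 had 0.633 CPM, against 0.178 to 0.249 CPM, and Cdsn had 0.452 CPM, against 0.784 to 0.845 CPM.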

How the results depend on the processing

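No paired analysis was possible because the replicate numbers follow accession order and pair no samples. The 10 genes and the 4 sums kept a log2 fold change below 0 under all 14 alternatives (140 of 140 and 56 of 56 values). edgeR called 3 genes in all, 5 with no filter and 5 without both Htr2b_cKO 3 and Htr2b_cKO 4. DESeq2 called 136 (120 higher, 16 lower), among them 1 of the 10 genes, H2-Q6, and 1 of the 4 sums, H2-Q6 with H2-Q7. Since the set was chosen by the level of H2-Q6 in this contrast, neither call is evidence apart from the choice (sum: log2 fold change -0.76, adjusted p = 0.0194; adjusted p 0.227 to 0.999 in the edgeR fits that leave out 1 library). The cause was not tested. Leaving out 1 library gave 1 (without control 1) to 8 (without Htr2b_cKO 4) calls, 0 of them in the set. It gave log2 fold changes of -0.87 to -0.69 for H2-Q6 with H2-Q7, -0.63 to -0.51 for the 3 H2-Q genes, -0.51 to -0.33 for H2-K1 with H2-D1, and -0.52 to -0.34 for the 6 heavy chains. The GC and length correction moved the set's median log2 fold change to -0.27, the farthest of the alternatives toward 0. The pair of controls limits every comparison.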
